A study of Mus musculus with 12 samples.

Results

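The BCL2 family and the death receptor DR5 were followed in mouse livers after tunicamycin (TM), an inhibitor of N-linked glycosylation that leaves unfolded proteins in the endoplasmic reticulum (ER). The 10 members fall into classes by their role, namely the BH3-only genes Bcl2l11 (Bim), Bbc3 (Puma), Pmaip1 (Noxa) and Bid, the effectors Bax and Bak1, the death receptor gene Tnfrsf10b (DR5), and the pro-survival genes Bcl2, Bcl2l1 (Bcl-xL) and Mcl1. All probe sets that the platform annotation pairs with exactly 1 of these symbols were taken, which gave 29 probe sets for 9 of the 10 members, out of 18193 genes with a probe set. No probe set was paired with Bax in that annotation, so Bax was not analysed here. The brightest probe set of a gene, by its mean level on the 12 arrays, served as its main value.

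The samples were liver homogenates of Atf6a-/- mice given TM, wild-type mice given TM, Atf6a-/- mice given vehicle and wild-type mice given vehicle, with 3 animals in each of the 4 groups and 1 array per animal. TM was injected at 1 mg/kg in 150 mM dextrose, dextrose alone was the vehicle, and livers were taken 34 h later. Animals of both sexes and of different ages were used, without age or sex being given for single animals, and which part of the Atf6 gene is missing in the Atf6a-/- animals was not given in the sources used here. Values are RMA expression levels on the log2 scale, and they rank samples within a probe set but not one probe set against another. Because whole liver was homogenized, fewer cells of a type and less RNA per cell cannot be told apart.

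Cells die by the mitochondrial route when BH3-only proteins free or activate Bax and Bak1, which then open the outer mitochondrial membrane and let cytochrome c out. Bcl2, Bcl-xL and Mcl1 prevent this by binding both BH3-only proteins and effectors, so the ratio of the classes is thought to set the threshold for death. DR5 is a receptor for the ligand TRAIL and starts a separate route through caspase-8, which cuts Bid and so joins the routes. Under ER stress the PERK branch of the unfolded protein response raises ATF4 and CHOP (Ddit3), which have been linked to Bcl2l11, Bbc3 and Tnfrsf10b, while p53 acts on Bbc3, Pmaip1 and Tnfrsf10b and FOXO factors on Bcl2l11 and Bbc3. ATF6, the factor that the Atf6a-/- mice lack, is the sensor that restores chaperones.

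The promoters of the members were read from RefSeq (build GRCm38.p6, 250 bases before to 50 after each annotated start), where 8 of the 10 members had at least 1 entry and 13 in all. These were searched on both strands for the C/EBP-ATF element (TGATGNAA), which ATF4 and CHOP use as dimers with C/EBP factors, for the ER stress element (CCAAT, 9 bases, CCACG) that ATF6 uses, and for the FOXO site TGTTTAC. Tnfrsf10b and Pmaip1 had no entry and were not searched, while Bax, which was not measured, is among the 13. None of the 13 promoters held the C/EBP-ATF element, which 3.97% of all 32851 promoters of that length held, or the ER stress element, which 0.119% held. The FOXO site was in 2 of the 13, against 3.65% of all promoters. These are matches of letters only, and at shares this low a count of 0 in 13 promoters does not set the members apart. The sequences printed here are both promoters with a FOXO match (in capitals), at base -227 on the opposite strand for Bcl2l11 (chr2:128125788-128126087, plus strand) and at base -167 for Bbc3 (chr7:16310011-16310310, plus strand). The promoter of Bcl2l1 (the most upstream of its 3 starts, chr2:152831679-152831978, minus strand) follows because only this member was called between the genotypes after TM by its main probe set. This promoter held none of the motifs. The last is the promoter of Trib3, a target of ATF4 and CHOP (chr2:152344011-152344310, minus strand), as an example that holds the C/EBP-ATF element (in capitals, on the opposite strand at base 14). Among the other listed genes that were measured, Atf3 and Chac1 also held this element. So did Hrk and Dffa, which were not called in either TM response, so a match does not mark the genes that responded.
Bcl2l11: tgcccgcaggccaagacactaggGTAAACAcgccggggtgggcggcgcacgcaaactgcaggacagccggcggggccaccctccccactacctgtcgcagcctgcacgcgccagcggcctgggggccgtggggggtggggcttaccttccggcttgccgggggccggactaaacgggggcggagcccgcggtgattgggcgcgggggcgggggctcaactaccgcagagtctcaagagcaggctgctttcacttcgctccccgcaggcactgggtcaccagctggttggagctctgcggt
Bbc3: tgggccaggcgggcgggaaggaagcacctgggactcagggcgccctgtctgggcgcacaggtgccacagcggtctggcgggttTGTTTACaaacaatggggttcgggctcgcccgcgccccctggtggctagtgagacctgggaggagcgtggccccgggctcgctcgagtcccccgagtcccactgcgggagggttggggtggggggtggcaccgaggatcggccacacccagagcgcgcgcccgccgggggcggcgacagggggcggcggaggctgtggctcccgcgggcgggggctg
Bcl2l1: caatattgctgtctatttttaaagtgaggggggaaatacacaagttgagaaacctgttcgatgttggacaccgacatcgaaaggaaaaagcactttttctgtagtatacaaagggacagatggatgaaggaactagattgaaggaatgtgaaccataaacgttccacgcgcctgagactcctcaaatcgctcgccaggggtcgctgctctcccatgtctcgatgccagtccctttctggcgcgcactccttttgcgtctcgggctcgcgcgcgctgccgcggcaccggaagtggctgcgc
Trib3: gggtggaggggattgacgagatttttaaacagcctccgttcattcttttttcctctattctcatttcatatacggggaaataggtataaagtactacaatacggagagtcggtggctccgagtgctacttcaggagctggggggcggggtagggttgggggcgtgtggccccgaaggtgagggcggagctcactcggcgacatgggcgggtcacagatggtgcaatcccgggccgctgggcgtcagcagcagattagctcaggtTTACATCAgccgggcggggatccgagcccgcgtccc

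The arrays separated by treatment and genotype before any member was considered. On the first principal component, with 68.3% of the variance, the Atf6a-/- TM livers lay between 113.6 and 119.9, the wild-type TM livers at -12.9, 29.5 and -11.9, and the vehicle livers of both genotypes between -61.5 and -55.8. The probe set of Atf6 itself had 9.60, 9.81 and 9.23 in Atf6a-/- TM livers and 9.30, 9.72 and 9.49 in wild-type TM livers. After vehicle it had 6.88, 6.85 and 6.60 in Atf6a-/- livers and 8.54, 8.42 and 8.49 in wild-type livers (difference -1.71 ± 0.15 SE, adjusted p = 0.00611), and this call was lost without Atf6a-/- vehicle animal 2 or 3 or wild-type vehicle animal 1 or 2 (adjusted p up to 0.0714). Since it is not known whether this probe set lies in the deleted part, the overlapping TM values are no check of the labels. The summed level of 8 hepatocyte markers on the log2 scale was 15.60 to 16.07 in Atf6a-/- TM livers, 16.40 to 16.74 in wild-type TM livers, 16.78 to 17.06 in Atf6a-/- vehicle livers and 16.93 to 17.04 in wild-type vehicle livers. In the Atf6a-/- response 6 of the 8 were called lower, in the wild-type response 1 of the 8, and between Atf6a-/- TM and wild-type TM livers 4 of the 8. That of 7 measured neutrophil markers was 9.39 to 11.36 in Atf6a-/- TM livers, 8.55 to 9.34 in wild-type TM livers, 7.84 to 8.02 in Atf6a-/- vehicle livers and 7.99 to 8.21 in wild-type vehicle livers, with 2 of 7 called higher in the Atf6a-/- response, 1 of 7 in the wild-type response and 2 of 7 between Atf6a-/- TM and wild-type TM livers. Of 8 Kupffer cell and macrophage markers 2 were called higher and 5 lower in the Atf6a-/- response, 1 higher and 4 lower in the wild-type response, and 1 higher and 0 lower between the genotypes after TM. In the Atf6a-/- response the other marker lists had 1 of 7 (endothelial), 2 of 8 (stellate cell), 1 of 3 (red cell), 0 of 7 (lymphocyte) and 0 of 4 (cholangiocyte) called lower and 0 higher, and in the wild-type response 1 endothelial marker was called lower and no other. Xist was at 12.29 on 1 Atf6a-/- TM array, 12.39 on 1 Atf6a-/- vehicle array and 12.19 on 1 wild-type vehicle array, and at 6.68 or less on all others, which include the 3 wild-type TM arrays. The part of these shifts in the differences of the members was not tested.

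Few members were called in any comparison. A probe set was called at an adjusted p under 0.05 by limma and a difference over 1.5-fold. In Atf6a-/- livers TM raised 0 and lowered 1 of the 9 measured members, where 15.2% of all genes were called higher and 12.8% lower. In wild-type livers it raised 0 and lowered 1, where 3.45% of genes were called higher and 3.86% lower. Between Atf6a-/- TM and wild-type TM livers 1 member was higher and 0 lower, where the shares were 11.3% and 8.45%. Between Atf6a-/- vehicle and wild-type vehicle livers 0 members were called, and nearly no gene was (0% higher and 0.0055% lower). For the interaction, which asks whether the TM response differed between the genotypes, 0 members were called, where 7.56% of genes were called higher and 6.69% lower. At an unadjusted p under 0.05 the counts were 5, 4, 2, 0 and 1 of 9 members in these 5 comparisons, where 44.5%, 22.6%, 35.1%, 2.74% and 27.8% of all genes had such a p. With 9 members, 1 call is the smallest count above 0, so these counts do not set the members apart from other genes.

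**Figure D1:**
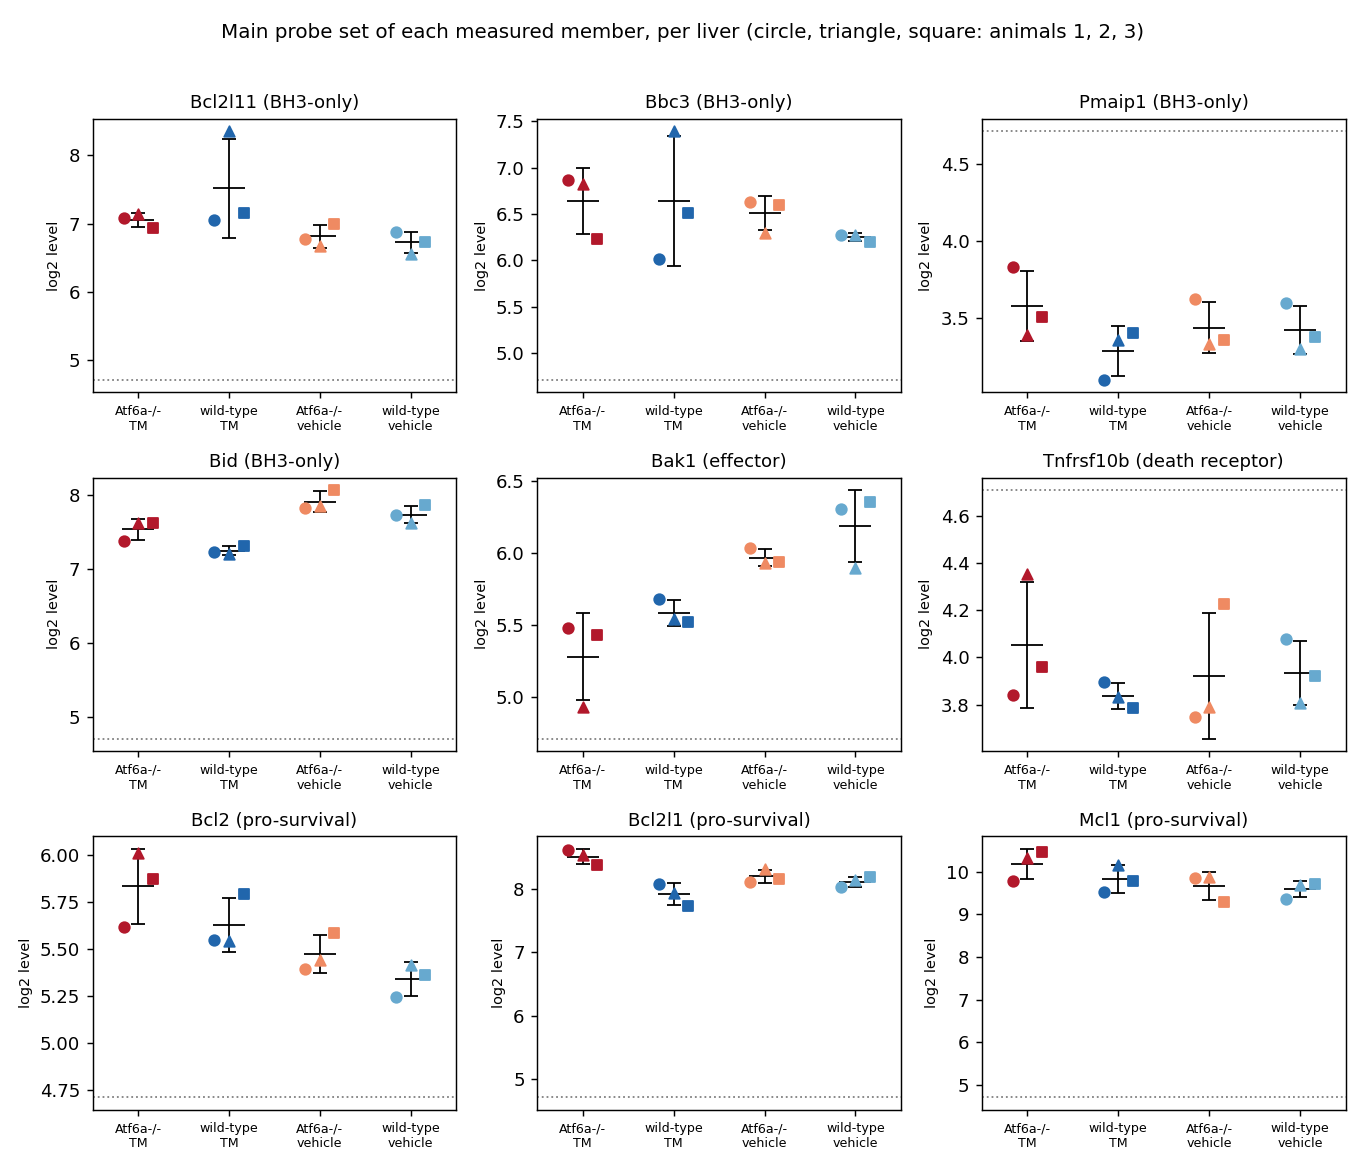
RMA log2 level of the main probe set of each of the 9 measured members in every liver, by group (circle, triangle and square are animals 1, 2 and 3, lines are the mean ± SD, n = 3). The dotted line is the highest array median, 4.71, and Pmaip1 and Tnfrsf10b lie under it in all 12 livers, while wild-type TM animal 2 stands above all other livers for Bcl2l11 and Bbc3.

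Among the BH3-only genes, Bcl2l11, whose product Bim binds all pro-survival proteins, had 7.08, 7.14 and 6.93 in Atf6a-/- TM livers and 7.05, 8.35 and 7.15 in wild-type TM livers. It had 6.78, 6.67 and 7.0 in Atf6a-/- vehicle livers and 6.88, 6.56 and 6.73 in wild-type vehicle livers. The wild-type TM and vehicle livers did not overlap, but 1 wild-type TM liver, animal 2, stood far above the other 2. The wild-type difference of 0.80 ± 0.27 (SE, adjusted p = 0.115) did not pass the test, and neither did that in Atf6a-/- livers, 0.24 ± 0.27 (adjusted p = 0.589). The SE is pooled over the 4 groups. Their SDs were 0.11 in Atf6a-/- TM, 0.72 in wild-type TM, 0.17 in Atf6a-/- vehicle and 0.16 in wild-type vehicle livers. The Atf6a-/- difference was thus judged by a spread that the wild-type TM livers widened. Without animal 2 the wild-type difference was 0.38 (adjusted p = 0.149), and without animal 1 it was 1.03 and was called (adjusted p = 0.0456). The same liver was the highest of its group on all 5 probe sets of Bcl2l11, with 8.22, 5.97, 6.12 and 4.76 on the other 4. On the main probe set the Atf6a-/- TM livers differed from wild-type TM livers by -0.47 (95% interval -1.05 to 0.12).

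Bbc3, whose product Puma likewise binds every pro-survival protein, had 6.87, 6.83 and 6.23 in Atf6a-/- TM livers and 6.01, 7.39 and 6.51 in wild-type TM livers. Its vehicle levels were 6.63, 6.30 and 6.60 in Atf6a-/- livers and 6.27, 6.28 and 6.2 in wild-type livers. Here too wild-type TM animal 2 was the highest liver of all, and the TM groups overlapped with their vehicle groups. The TM difference was 0.13 ± 0.28 (adjusted p = 0.794) in Atf6a-/- livers and 0.39 ± 0.28 (adjusted p = 0.544) in wild-type livers, and the wild-type value was 0.01 without animal 2. That liver also had the highest levels of its group for the stress genes Ddit3 (12.87, where the other 2 had 9.81 and 10.89), Atf3 (12.37, against 5.34 and 10.27), Chac1 (10.03, against 7.29 and 8.40) and Cdkn1a (10.34, against 6.40 and 8.40). Whether these levels bear on those of Bcl2l11 and Bbc3 was not tested.

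Pmaip1, whose product Noxa is a partner of Mcl1, was dim in every liver. It ranged from 3.39 to 3.83 in Atf6a-/- TM livers, 3.10 to 3.40 in wild-type TM livers, 3.33 to 3.62 in Atf6a-/- vehicle livers and 3.30 to 3.60 in wild-type vehicle livers. All 12 values lay under the medians of their arrays, and the 4 groups overlapped. The differences were 0.14 ± 0.14 (adjusted p = 0.543) in the Atf6a-/- response and -0.14 ± 0.14 (adjusted p = 0.701) in the wild-type response, at a brightness where a change would be hard to detect.

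Bid, the BH3-only protein that caspase-8 activates, was lower after TM in both genotypes, by less than the fold required. It had 7.38, 7.62 and 7.63 in Atf6a-/- TM livers against 7.82, 7.85 and 8.07 in Atf6a-/- vehicle livers, and 7.24, 7.21 and 7.32 in wild-type TM livers against 7.73, 7.63 and 7.87 in wild-type vehicle livers. In neither genotype did the TM and vehicle livers overlap. The difference was -0.37 ± 0.11 (adjusted p = 0.0197) in Atf6a-/- livers and -0.49 ± 0.11 (adjusted p = 0.0168) in wild-type livers, 1.3-fold and 1.4-fold, although scaling to spike-in controls turned the Atf6a-/- value to 0.11. A second Bid probe set gave -0.34 ± 0.11 (adjusted p = 0.0381) and -0.39 ± 0.11 (adjusted p = 0.0624), and the third was under the array medians. After TM every Atf6a-/- liver was above every wild-type liver (0.29 ± 0.11, adjusted p = 0.0885).

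Bak1, the effector that forms pores beside Bax, was the one member called in a TM response, and it was lower. It had 5.47, 4.93 and 5.43 in Atf6a-/- TM livers, against 6.03, 5.93 and 5.94 in Atf6a-/- vehicle livers. In wild-type TM livers it had 5.68, 5.54 and 5.52, against 6.30, 5.90 and 6.35 in wild-type vehicle livers. All 6 TM livers were below all 6 vehicle livers. Bak1 fell 1.61-fold in Atf6a-/- livers (-0.69 ± 0.15, adjusted p = 0.00463) and 1.52-fold in wild-type livers (-0.60 ± 0.15, adjusted p = 0.0366). The interaction was -0.08 (95% interval -0.56 to 0.39, adjusted p = 0.898), so a difference between the genotypes in this fall was not detectable, although a moderate one lies within the interval. The call in Atf6a-/- livers was lost without Atf6a-/- TM animal 2 (-0.51, adjusted p = 0.0162), with scaling to spike-in controls (-0.21, adjusted p = 0.278) and with the mean of both probe sets (-0.44, adjusted p = 0.00695), and the wild-type call was lost without 7 of the 12 animals taken singly, with adjusted p up to 0.144. The other Bak1 probe set was under the array medians throughout.

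Tnfrsf10b, which encodes DR5, stayed dim in every group. Its main probe set had 3.84, 4.35 and 3.96 in Atf6a-/- TM livers and 3.89, 3.83 and 3.78 in wild-type TM livers. It had 3.75, 3.79 and 4.23 in Atf6a-/- vehicle livers and 4.08, 3.81 and 3.92 in wild-type vehicle livers. The groups overlapped, all values were under the array medians, and the differences were 0.13 ± 0.15 (adjusted p = 0.615) in the Atf6a-/- response and -0.10 ± 0.15 (adjusted p = 0.829) in the wild-type response. The second probe set was equally dim but separated the Atf6a-/- groups, with 4.48, 3.94 and 4.11 in TM livers and 3.71, 3.61 and 3.81 in vehicle livers (0.46 ± 0.14, adjusted p = 0.026, 1.38-fold). The main probe sets most like the main one of Tnfrsf10b over the 12 arrays were those of Tex13b (Pearson r = 0.903), Eppin (0.898), 4933417G07Rik (0.892), B430306N03Rik (0.863) and 2210011K15Rik (0.857). Those of Tex13b, 4933417G07Rik and 2210011K15Rik were likewise under the array medians in every liver. These correlations share the same arrays and normalization and are given as a description.

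Of the pro-survival genes, Bcl2l1 carried the only member call between the genotypes. It had 8.62, 8.55 and 8.38 in Atf6a-/- TM livers and 8.08, 7.94 and 7.74 in wild-type TM livers. After vehicle it had 8.12, 8.32 and 8.16 in Atf6a-/- livers and 8.03, 8.14 and 8.19 in wild-type livers. Each Atf6a-/- TM liver was thus above every other liver of the study, while the wild-type TM livers lay within or under the range of the vehicle livers. Atf6a-/- TM livers exceeded wild-type TM livers by 0.60 ± 0.11 (95% interval 0.36 to 0.84, adjusted p = 0.00216), or 1.51-fold. The call was lost on the fold when Atf6a-/- TM animal 1 (0.54), Atf6a-/- TM animal 2 (0.58) or wild-type TM animal 3 (0.50) was left out, with adjusted p of 0.0111, 0.00976 and 0.0124. It was also lost with cyclic loess (0.49), with the mean of the gene's probe sets (0.51) and with scaling to the reference genes Btf3 and Ppia (0.16, adjusted p = 0.385). The response itself was 0.32 ± 0.11 (adjusted p = 0.051) in Atf6a-/- livers and -0.20 ± 0.11 (adjusted p = 0.388) in wild-type livers. The interaction was 0.51 ± 0.16 and was not called (adjusted p = 0.0567). Under the alternatives it ran from 0.07 (adjusted p = 0.801, scaling to Btf3 and Ppia) to 0.64, and it was called under 1 of the 23, without wild-type TM animal 1 (0.59, adjusted p = 0.0397).

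A pair of other Bcl2l1 probe sets was also called between the genotypes after TM. 1420887_a_at had 6.57, 6.42 and 6.41 in Atf6a-/- TM livers and 5.81, 5.99 and 5.56 in wild-type TM livers, a difference of 0.68 ± 0.14 (adjusted p = 0.00463). 1426191_a_at had 6.36, 6.28 and 6.0 in Atf6a-/- TM livers and 5.32, 5.58 and 4.94 in wild-type TM livers, a difference of 0.93 ± 0.20 (adjusted p = 0.00549). The fourth probe set was under the array medians on all arrays. In both bright ones the groups did not overlap, and 1426191_a_at was also called in the Atf6a-/- response (0.70 ± 0.20, adjusted p = 0.0198), so 3 of the 4 Bcl2l1 probe sets were called between the genotypes after TM. Their interactions were not called, at 0.45 ± 0.20 (adjusted p = 0.218) for 1420887_a_at and 0.73 ± 0.28 (adjusted p = 0.142) for 1426191_a_at. Scaling to Btf3 and Ppia moves every difference between the genotypes after TM by -0.43, which takes both probe sets under the 1.5-fold limit.

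Bcl2, the founding member of the family, had somewhat higher levels after TM. Its main probe set had 5.62, 6.01 and 5.87 in Atf6a-/- TM livers, against 5.39, 5.44 and 5.59 in Atf6a-/- vehicle livers. In wild-type TM livers it had 5.55, 5.54 and 5.79, against 5.24, 5.42 and 5.36 in wild-type vehicle livers. TM livers were above vehicle livers in both genotypes. The difference was 0.36 ± 0.12 (adjusted p = 0.0394, 1.28-fold) in Atf6a-/- livers and 0.29 ± 0.12 (adjusted p = 0.213) in wild-type livers, neither past 1.5-fold, and scaling to Btf3 and Ppia turned the Atf6a-/- value to -0.16. A different Bcl2 probe set, 1457687_at, had 5.43, 6.31 and 5.08 in Atf6a-/- TM livers and 4.32, 4.6 and 4.31 in wild-type TM livers. In the vehicle livers it had 4.46, 4.30 and 4.25 in Atf6a-/- animals and 4.42, 4.44 and 4.20 in wild-type animals. It rose above the array medians in the Atf6a-/- TM livers alone, was called in the Atf6a-/- response (1.27 ± 0.24, adjusted p = 0.0014) and between genotypes after TM (1.20 ± 0.24, adjusted p = 0.00359), and its interaction was called (1.22 ± 0.34, adjusted p = 0.04). The remaining 3 Bcl2 probe sets were dim and were not called, so the probe sets of this gene gave differences of unlike size.

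Mcl1, a short-lived pro-survival protein that hepatocytes need, gave opposite results on its 6 probe sets. The main one had 9.78, 10.32 and 10.45 in Atf6a-/- TM livers and 9.53, 10.16 and 9.78 in wild-type TM livers, with 9.85, 9.86 and 9.29 in Atf6a-/- vehicle livers and 9.37, 9.68 and 9.70 in wild-type vehicle livers. The groups overlapped, and the Atf6a-/- response of 0.52 ± 0.22 was not called (adjusted p = 0.104). Probe set 1416881_at was called higher in the Atf6a-/- response, with 8.65, 9.01 and 8.85 in TM livers and 8.37, 8.34 and 7.88 in vehicle livers (0.64 ± 0.16, adjusted p = 0.00946). Probe set 1456381_x_at was called lower in the same comparison, with 8.33, 8.98 and 8.25 in TM livers and 9.22, 9.36 and 8.93 in vehicle livers (-0.65 ± 0.18, adjusted p = 0.0189). Thus 2 of the 6 probe sets had higher values and 4 had lower values in Atf6a-/- TM livers, the other 3 low ones being 1416880_at at -0.34, 1456243_x_at at -0.47 and 1437527_x_at at -0.35, none of them called. None of the 6 was called in the wild-type response. Which transcripts these probe sets detect was not examined, so no direction is given for Mcl1 as a gene.

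**Figure D2:**
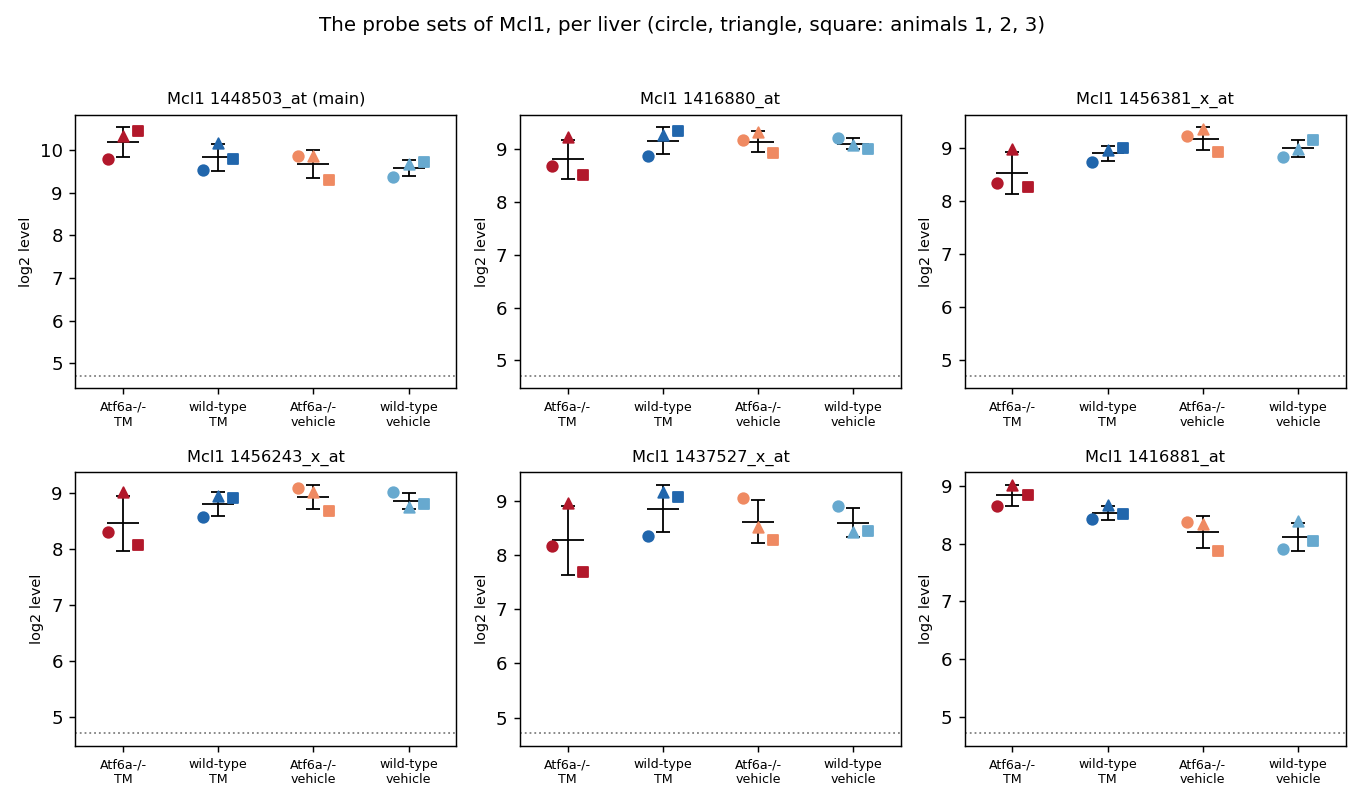
RMA log2 level of each of the 6 probe sets paired with Mcl1 in every liver, by group (circle, triangle and square are animals 1, 2 and 3, lines are the mean ± SD, n = 3, and the dotted line is the highest array median). The Atf6a-/- TM livers have a higher mean than the Atf6a-/- vehicle livers on 1448503_at and 1416881_at and a lower mean on the other 4.

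Counted over all 29 probe sets, 3 were called higher and 2 lower in the Atf6a-/- response, where 11.9% and 9.18% of all 45037 probe sets were. In the wild-type response 0 were higher and 1 lower, where the shares were 2.62% and 2.61%. Between the genotypes after TM 4 were higher and 0 lower, where they were 8.49% and 5.85%, and those 4 were the 3 of Bcl2l1 and 1457687_at of Bcl2. In the interaction 1 was higher and 0 lower, where they were 5.62% and 4.51%.

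**Figure D3:**
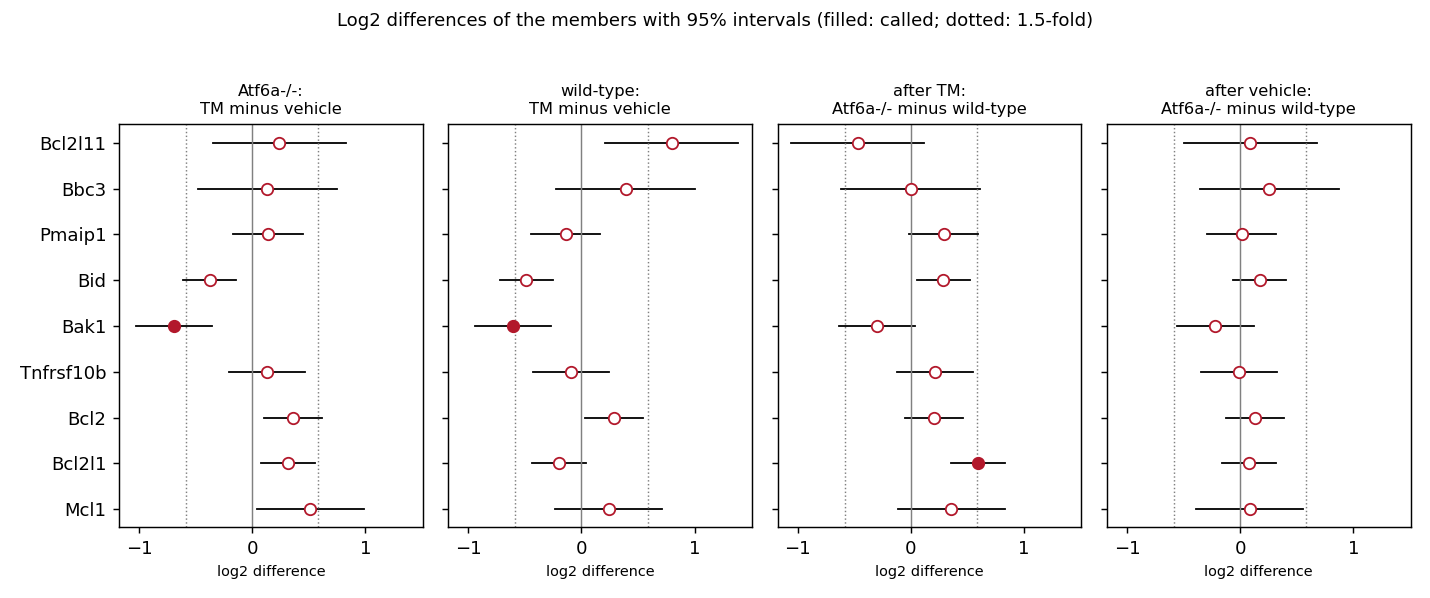
Log2 difference of each measured member in 4 comparisons, with its 95% interval (filled points are called, dotted lines mark 1.5-fold). Bak1 is called lower in both TM responses and Bcl2l1 higher in Atf6a-/- TM than in wild-type TM livers, and no member is called between the genotypes after vehicle.

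The classes were also set side by side by the medians of their members, as a description. In the Atf6a-/- response the median of the 6 measured pro-death members was 0.13 and that of the 3 pro-survival members 0.36, with -0.01 over all genes. In the wild-type response the medians were -0.12 and 0.24, with -0.02 over all genes. Between Atf6a-/- TM and wild-type TM livers they were 0.11 and 0.36, with 0.00 over all genes. The pro-death medians lean on the dim Pmaip1 and Tnfrsf10b, and over the 4 members above the array medians (Bcl2l11, Bbc3, Bid and Bak1), a choice made after seeing the data, they were -0.12, -0.05 and -0.15 in these 3 comparisons. The pro-survival medians of 0.24 and 0.36 in the last 2 comparisons were those of the main Mcl1 probe set, while 4 of the 6 Mcl1 probe sets had lower values in the Atf6a-/- response. With the mean of the 6 Mcl1 probe sets in its place, Mcl1 had -0.11, 0.14 and -0.17, and the pro-survival medians were 0.32, 0.14 and 0.21. Bcl2 and Bcl2l1 had positive differences in the first and the last of these comparisons, but with scaling to Btf3 and Ppia, which moved the median of all genes by -0.52, their Atf6a-/- responses were -0.16 and -0.20. A shift common to all genes of an array cancels in the difference between the classes within a liver. For each liver, the mean shift of the pro-death members from the wild-type vehicle mean minus that of the pro-survival members was -0.29, -0.61 and -0.65 in Atf6a-/- TM livers and -0.25, 0.04 and -0.18 in wild-type TM livers. It was -0.04, -0.26 and 0.16 in Atf6a-/- vehicle livers and 0.23, -0.20 and -0.04 in wild-type vehicle livers. The 3 Atf6a-/- TM livers had the lowest values of the 12, although Atf6a-/- TM animal 1 was close to Atf6a-/- vehicle animal 2. That order rests on the main Mcl1 probe set. With the mean of the Mcl1 probe sets and without the dim members the values were -0.21, -0.59 and -0.35 in Atf6a-/- TM livers and -0.24, 0.28 and -0.20 in wild-type TM livers, so that the TM groups overlapped.

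**Figure D4:**
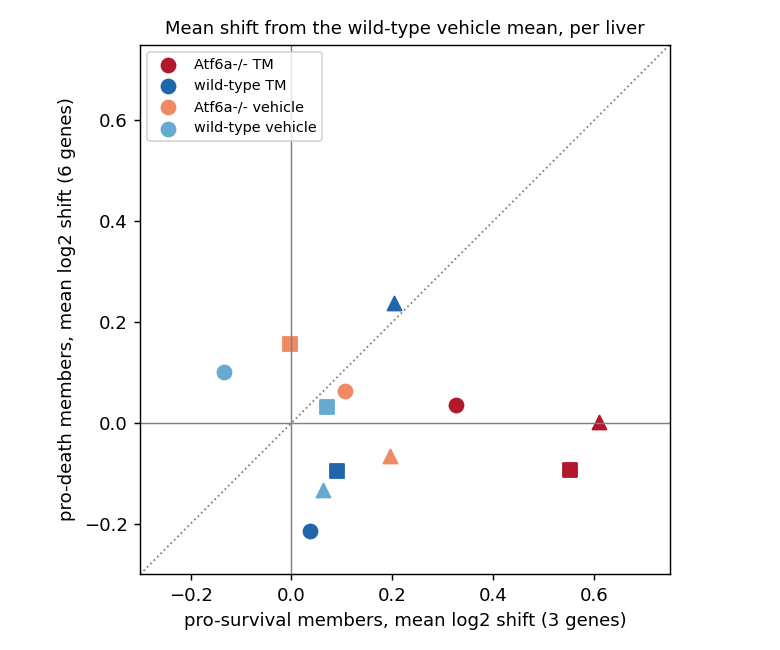
Mean log2 shift of the 6 measured pro-death members (vertical axis) against that of the 3 pro-survival members (horizontal axis) from the wild-type vehicle mean, 1 point per liver (circle, triangle and square are animals 1, 2 and 3, the dotted line marks equal shifts). The Atf6a-/- TM livers lie furthest to the right, at 0.33, 0.61 and 0.55, with pro-death shifts of 0.04, 0.00 and -0.09.

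Other genes of the family were followed as a list. Of 8 other pro-death genes 7 were measured, and in the Atf6a-/- response 0 rose and 3 fell, where 15.2% of all genes were called higher and 12.8% lower, while 0 were called in the wild-type response. Their median was -0.10 in Atf6a-/- livers and -0.05 in wild-type livers. Bnip3, a mitochondrial BH3-like protein with a role in mitophagy, had 8.91, 8.07 and 9.29 in Atf6a-/- TM livers and 12.13, 11.22 and 11.78 in wild-type TM livers, against 12.46, 12.06 and 11.74 in Atf6a-/- vehicle livers and 12.36, 12.15 and 12.01 in wild-type vehicle livers. It fell 10.1-fold in Atf6a-/- livers (-3.33 ± 0.30, adjusted p = 5.22e-06), and its Atf6a-/- TM livers stood far below all others. Bmf, a BH3-only protein tied to the cytoskeleton, fell 4.52-fold (-2.18 ± 0.22, adjusted p = 1.18e-05) in Atf6a-/- livers, with 4.69, 4.49 and 4.62 in Atf6a-/- TM livers and 5.77, 5.54 and 5.69 in wild-type TM livers. It had 6.55, 6.38 and 7.39 in Atf6a-/- vehicle livers and 5.97, 6.44 and 6.33 in wild-type vehicle livers. The wild-type TM livers were thus also below the wild-type vehicle livers, without a call. Under the 24 alternatives the Atf6a-/- difference of Bmf ran from -2.69 to -0.67 and stayed called. Bik, a BH3-only protein of the ER membrane, fell 1.88-fold in Atf6a-/- livers (-0.91 ± 0.16, adjusted p = 0.000726). The same 3 were lower in Atf6a-/- TM than in wild-type TM livers, by -2.96, -1.07 and -0.65, and their interactions were called. Among other pro-survival genes 2 of 6 were measured. Bcl2l2 (Bcl-w) rose 1.81-fold in Atf6a-/- livers, with 8.25, 8.44 and 8.30 in TM livers and 7.32, 7.57 and 7.54 in vehicle livers (0.86 ± 0.15, adjusted p = 0.000661), while the wild-type difference was 0.04 ± 0.15. The Atf6a-/- calls of Bik (with spike-in scaling) and Bcl2l2 (with scaling to Btf3 and Ppia and with the mean of its probe sets) were lost under these alternatives, as was that of Bmf between genotypes with the mean of its probe sets (-0.34).

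In the death receptor route, 13 of 14 listed genes besides Tnfrsf10b were measured, 1 rose and 3 fell in Atf6a-/- livers, and 1 rose and 0 fell in wild-type livers. Of all genes 15.2% were called higher and 12.8% lower in Atf6a-/- livers, and 3.45% and 3.86% in wild-type livers. The medians of the list were -0.05 and -0.02, close to those of all genes. Casp8, the initiator caspase of the route, had 8.18, 7.92 and 8.11 in Atf6a-/- TM livers, against 8.89, 8.92 and 8.95 in Atf6a-/- vehicle livers (-0.85 ± 0.11, adjusted p = 9.63e-05). The adaptor Tradd and the receptor Fas fell by 0.81 and 0.80 on the log2 scale in the same comparison. Casp8 also had -0.57 ± 0.11 in wild-type livers (adjusted p = 0.00888), just short of 1.5-fold. Cflar, which encodes the caspase-8 inhibitor c-FLIP, rose in both genotypes, by 0.95 ± 0.17 (adjusted p = 0.000923) in Atf6a-/- livers and 1.05 ± 0.17 (adjusted p = 0.0026) in wild-type livers. It had 9.35, 9.05 and 9.14 in Atf6a-/- TM livers, 9.50, 8.77 and 8.86 in wild-type TM livers, and no more than 8.38 in any vehicle liver. The Atf6a-/- call of Cflar was lost with scaling to Btf3 and Ppia and with the mean of its probe sets (0.22, adjusted p = 0.179), and the wild-type call with the mean of its probe sets (0.55). Those of Casp8, Tradd and Fas in Atf6a-/- livers were lost with spike-in scaling, and that of Tradd also with the mean of its probe sets. The ligand gene Tnfsf10 (TRAIL) had 4.83, 4.52 and 4.64 in Atf6a-/- TM livers and 4.50, 4.59 and 4.87 in wild-type TM livers, and was not called.

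Downstream of mitochondria, 16 of 18 listed genes were measured, and in Atf6a-/- livers 5 rose and 1 fell, with a median of -0.03. Of all genes 15.2% were called higher and 12.8% lower in Atf6a-/- livers, and 3.45% and 3.86% in wild-type livers. Htra2 and Diablo, mitochondrial proteins that block caspase inhibitors once released, rose 3.27-fold (1.71 ± 0.15, adjusted p = 3.4e-06) and 2.77-fold (1.47 ± 0.11, adjusted p = 1.45e-06). Diablo had 9.63, 9.58 and 9.54 in Atf6a-/- TM livers and 8.60, 8.59 and 8.27 in wild-type TM livers, against 8.28, 8.02 and 8.03 in Atf6a-/- vehicle livers and 8.05, 8.01 and 7.87 in wild-type vehicle livers. Apaf1, the scaffold of the apoptosome, rose by 1.05 ± 0.22 (adjusted p = 0.00326), and Cycs, cytochrome c, by 0.99 ± 0.23 (adjusted p = 0.0061). The calls of Apaf1 and Cycs were lost with scaling to Btf3 and Ppia. The caspase inhibitor Birc2 rose by 0.63 ± 0.20 (adjusted p = 0.0342), a call lost under 6 of 24 alternatives (down to 0.11, adjusted p = 0.613), among them those without Atf6a-/- TM animal 1 or 2 or Atf6a-/- vehicle animal 2 or 3. Casp6, an executioner caspase, fell 2.58-fold, with 7.74, 7.70 and 7.82 in Atf6a-/- TM livers against 9.35, 9.05 and 8.96 in Atf6a-/- vehicle livers (-1.37 ± 0.15, adjusted p = 2.7e-05). Under the 24 alternatives this difference ran from -1.88 to -0.69 and stayed called. In wild-type livers 0 of the 16 rose and 1 fell, Aifm1 (apoptosis-inducing factor), by 0.66 on the log2 scale (adjusted p = 0.043), a call lost under 13 of 24 alternatives (adjusted p up to 0.16).

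The list of stress and p53 genes had the most calls. It holds factors linked to the members and also targets of such factors, among them Trib3, Cdkn1a and Mdm2. Of 14 named genes 13 were measured, and 9 rose and 2 fell in Atf6a-/- livers, while 4 rose and 0 fell in wild-type livers. Of all genes 15.2% were called higher and 12.8% lower in Atf6a-/- livers, and 3.45% and 3.86% in wild-type livers. Near the threshold were the Atf6a-/- call of Chac1 (adjusted p = 0.0496) and the wild-type call of Ppp1r15a (adjusted p = 0.0475). Each was lost under 15 of 24 alternatives. The median difference of the list was 2.13 in Atf6a-/- livers and 1.24 in wild-type livers. Ddit3, which encodes CHOP, had 12.52, 13.04 and 12.94 in Atf6a-/- TM livers and 9.81, 12.87 and 10.89 in wild-type TM livers, against 6.41, 6.46 and 6.49 in Atf6a-/- vehicle livers and 7.03, 6.91 and 6.89 in wild-type vehicle livers. It rose 83.5-fold in Atf6a-/- livers (6.38 ± 0.54, adjusted p = 2.87e-06) and 19-fold in wild-type livers (4.25 ± 0.54, adjusted p = 0.000588), and the difference between the responses did not pass the test (2.14 ± 0.76, adjusted p = 0.108). Under the 24 alternatives the Atf6a-/- rise of Ddit3 ran from 4.32 to 6.86 and the wild-type rise from 3.08 to 4.94. Both calls were kept. Atf4, the factor upstream of CHOP, had 12.42, 12.41 and 12.49 in Atf6a-/- TM livers and 10.67, 11.72 and 10.87 in wild-type TM livers, against 10.42, 10.29 and 9.93 in Atf6a-/- vehicle livers and 10.60, 10.15 and 10.33 in wild-type vehicle livers. It rose by 2.23 ± 0.23 (adjusted p = 1.51e-05) in Atf6a-/- livers and was not called in wild-type livers (0.73 ± 0.23, adjusted p = 0.0939), and its interaction was called (1.5 ± 0.33, adjusted p = 0.0121). Trib3, whose promoter is shown above, rose 19.8-fold in Atf6a-/- livers (4.31 ± 0.35, adjusted p = 2.16e-06) and 10.7-fold in wild-type livers (3.42 ± 0.35, adjusted p = 0.000148).

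In Atf6a-/- livers Cdkn1a and Mdm2 were called higher and Foxo1 and Foxo3 lower. Cdkn1a (p21), a p53 target and cell cycle inhibitor that other factors can also raise, had 12.03, 11.14 and 11.23 in Atf6a-/- TM livers, against 5.72, 5.72 and 5.82 in Atf6a-/- vehicle livers, a 52.4-fold rise (5.71 ± 0.70, adjusted p = 5.27e-05). Mdm2, a p53 target that also degrades p53, rose by 1.37 ± 0.22 (adjusted p = 0.000495). Bbc3, Pmaip1 and Tnfrsf10b, the members linked to p53 above, were not called. Pmaip1 and Tnfrsf10b lay under the array medians in every liver, where a change would be hard to detect. The second Tnfrsf10b probe set had 0.46 (adjusted p = 0.026), short of 1.5-fold. Trp53 itself was not analysed here, as no probe set was paired with that symbol alone. Foxo1 had 7.71, 7.20 and 7.12 in Atf6a-/- TM livers against 8.90, 9.09 and 8.78 in Atf6a-/- vehicle livers, a 2.98-fold fall (-1.57 ± 0.18, adjusted p = 2.78e-05). Foxo3 fell 2.64-fold (-1.40 ± 0.10, adjusted p = 1.16e-06), and neither was called in wild-type livers. Bcl2l11 and Bbc3, with a FOXO match in their promoters, had the Atf6a-/- differences of 0.24 and 0.13 given above.

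**Figure D5:**
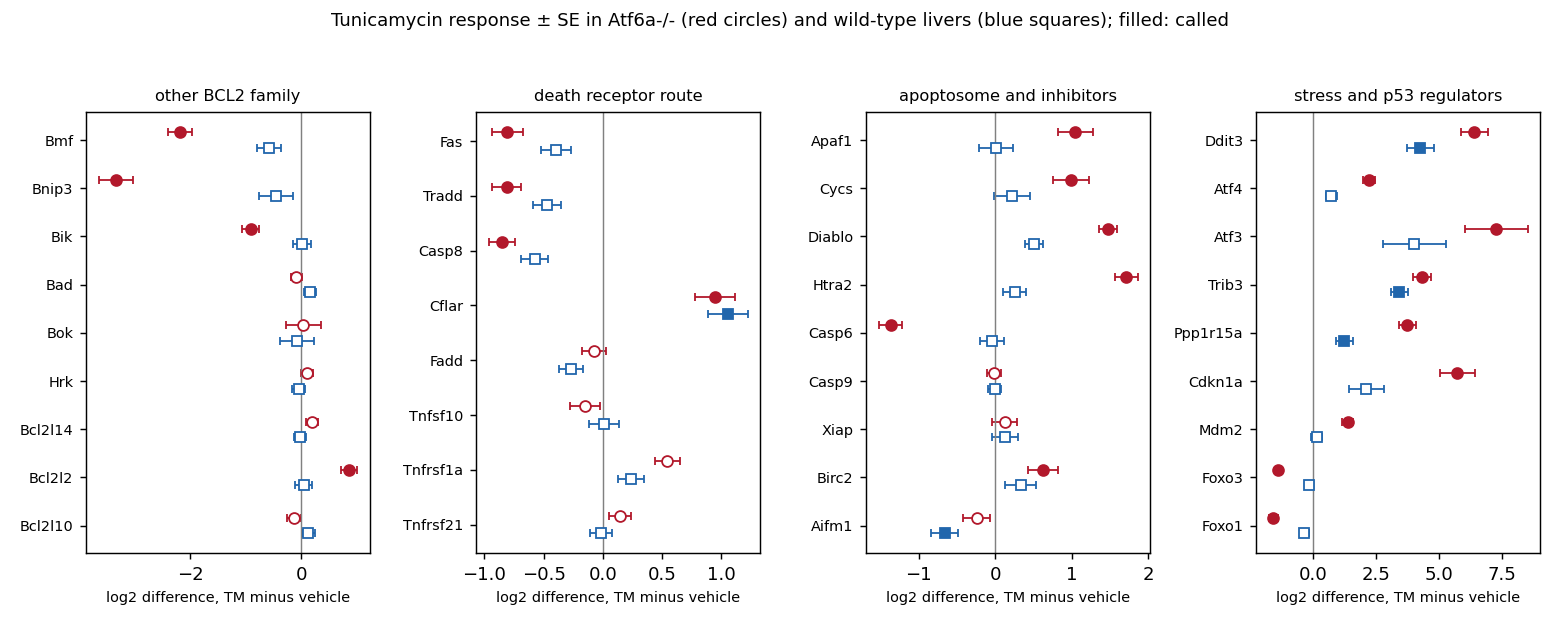
TM response (TM minus vehicle, log2 difference ± SE) of selected genes of 4 lists around the members, in Atf6a-/- livers (red circles) and wild-type livers (blue squares), with filled symbols for called differences. Ddit3 is called in both genotypes, at 6.38 and 4.25, while Bnip3, Bmf, Bik, Casp6, Foxo1 and Foxo3 are called lower in Atf6a-/- livers and not in wild-type livers.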

How the data were processed

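Total RNA from 12 livers was hybridised to Affymetrix mouse arrays, 1 animal per array. The authors deposited log2 expression values computed by RMA, with affy and limma named in the submitters' processing notes and no versions given. RMA subtracts background, quantile-normalizes the arrays and summarizes probes, so array-wide shifts are removed. Array number and probe brightness limit the precision. The source field of the labels gives 8 h, but titles and protocol give 34 h, which was used. Genes were named from the platform annotation, in which 34945 probe sets have 1 symbol, 932 several and 9160 none, and only the first were used.

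From 45101 probe sets 64 AFFX controls were left out. The other 45037 were fitted with 1 mean per group over all 12 arrays (lmFit, contrasts.fit and eBayes in limma 3.58.1, R 4.3.3), with 8 residual degrees of freedom and no covariate. Two-sided p-values were adjusted by Benjamini-Hochberg over all probe sets within each of 5 contrasts. The fit was tested on simulated data. p-values set each difference against the spread between animals, pooled over the 4 groups and moderated over all probe sets by eBayes. An outlying liver thus widens the SE in every comparison of that probe set. Figures were drawn with Python 3.11.15 and matplotlib 3.10.9.

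The members and gene lists were chosen with earlier results of these data known. Named were all 10 members with every probe set, from the other lists up to 2 called genes with the largest rise and 2 with the largest fall per contrast, Ddit3, Atf4, Trib3, Trp53 and Atf6, and the 5 genes most correlated with Tnfrsf10b. Other genes named from the lists (Bik, Apaf1, Cycs, Birc2, Fas, Mdm2, Tnfsf10, Chac1) were added after their values were seen, as were the promoters with a motif match. The alternatives were median centring, cyclic loess, scaling to Btf3 and Ppia (Ppia by a probe set that carries a second symbol) or to spike-ins, a filter on dim probe sets, the mean of a gene's probe sets, fits on only the groups compared, an intensity trend, array weights, Xist as a covariate, a replicate block, no fold minimum, and each animal left out in turn.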

Additional observations from a re-analysis of the deposited data

Results flagged for a closer look

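For 1 probe set of a member and 14 other genes the TM response differed between Atf6a-/- and wild-type livers in the interaction test. Of all genes 7.56% were called higher and 6.69% lower in it, and the lists were chosen with earlier results known. Called were 3 of 7 other pro-death genes, 1 of 2 other pro-survival genes and 0 of 13 genes of the death receptor route. Of 16 mitochondrial and caspase genes 2 were higher and 1 lower, and of 13 stress and p53 genes 4 were higher and 2 lower. Each value is the Atf6a-/- response minus the wild-type response on the log2 scale. The Bcl2 probe set 1457687_at had 1.22 (adjusted p = 0.04), while the interaction of the main Bcl2 probe set was 0.07 (adjusted p = 0.88). In the rest of the family Bnip3 had -2.87, Bmf -1.60, Bik -0.93 and Bcl2l2 0.82. Among mitochondrial and caspase genes Htra2 had 1.46, Diablo 0.96 and Casp6 -1.33. Among stress and p53 genes Cdkn1a had 3.60 (adjusted p = 0.0376), Ppp1r15a 2.49, Atf4 1.5, Mdm2 1.24 (adjusted p = 0.0271), Foxo1 -1.23 and Foxo3 -1.24. Atf6, the targeted gene, had 1.75, with lower levels in Atf6a-/- than in wild-type vehicle livers and overlapping levels after TM. Of 23 alternatives, 12 lost the call of Cdkn1a (adjusted p up to 0.0981), 10 that of Mdm2 (up to 0.131), 6 that of Bcl2l2 (up to 0.234), 4 that of Bik (up to 0.123) and 1 that of Diablo (0.112).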

How the results depend on the processing

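Of 45 member differences (9 members, 5 comparisons), 7 kept their direction and side of the threshold under all 24 alternatives run (23 for the interaction), and none of the 3 called ones did, while 29 changed sign somewhere, none of them called as reported. The cause was not tested, but the scalings to reference genes and spike-ins shift every gene at once. Scaling to Btf3 and Ppia moved the median of all genes by -0.52 in the Atf6a-/- response, -0.07 in the wild-type response and -0.43 between genotypes after TM, and scaling to spike-ins by 0.48, 0.35 and 0.21. The filter on dim probe sets left out Pmaip1 and Tnfrsf10b.

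The main counts of called members were 1 in the Atf6a-/- response, 1 in the wild-type response and 1 between genotypes after TM. The shares of all genes called under each alternative are not given here, and both scalings shift every gene at once. The counts that follow therefore do not set the members apart from other genes. The Atf6a-/- response gave 2 with Btf3 and Ppia scaling (Bak1 and Bid), 5 with spike-in scaling (Bcl2, Bcl2l1, Mcl1, Pmaip1 and Tnfrsf10b, without Bak1), 0 with the mean of all probe sets and 3 without a fold minimum (with Bid and Bcl2 added). The wild-type response gave 0 with cyclic loess, Btf3 and Ppia scaling, the mean of all probe sets, only the groups compared and the Xist covariate, and 2 with spike-in scaling (Bcl2 and Bcl2l11) and 2 without a fold minimum. The comparison between genotypes after TM gave 0 with cyclic loess and the mean of all probe sets, and 2 with Btf3 and Ppia scaling (Bak1 and Bcl2l11, without Bcl2l1). With single animals left out the counts ran from 0 to 2 in the Atf6a-/- response, 0 to 1 in the wild-type response, 0 to 1 between genotypes after TM and 0 to 1 in the interaction. Leaving out wild-type TM animal 1 exchanged Bak1 for Bcl2l11 in the wild-type response.

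With Btf3 and Ppia scaling the Atf6a-/- response became -0.28 for Bcl2l11, -0.38 for Bbc3, -0.38 for Pmaip1, -0.39 for Tnfrsf10b, -0.16 for Bcl2, -0.20 for Bcl2l1 and -0.00045 for Mcl1. The difference between genotypes after TM became -0.43 for Bbc3, -0.14 for Pmaip1, -0.14 for Bid, -0.22 for Tnfrsf10b, -0.22 for Bcl2 and -0.073 for Mcl1, and the interaction -0.16 for Pmaip1, -0.33 for Bid, -0.22 for Tnfrsf10b, -0.37 for Bcl2 and -0.17 for Mcl1. With spike-in scaling the Atf6a-/- response of Bid became 0.11, the wild-type response 0.21 for Pmaip1, 0.25 for Tnfrsf10b and 0.15 for Bcl2l1, the vehicle difference of Tnfrsf10b 0.064 and the interaction of Bak1 0.047. With the mean of all probe sets Mcl1 had -0.11 in the Atf6a-/- response, -0.17 between genotypes after TM and -0.25 in the interaction, the wild-type response was 0.015 for Tnfrsf10b and 0.016 for Bcl2l1, and the vehicle difference of Bcl2 was -0.032. Between genotypes after TM Bbc3 had -0.047 with the Xist covariate, -0.00090 with median centring and -0.059 with cyclic loess. With single animals left out, signs changed for Bbc3 between genotypes after TM (-0.31 to 0.38), the Atf6a-/- response of Tnfrsf10b (-0.022 to 0.28), the interactions of Bak1 (-0.18 to 0.091), Bcl2 (-0.016 to 0.18) and Bbc3 (-0.57 to 0.12), and the vehicle differences of Pmaip1 (-0.081 to 0.10), Tnfrsf10b (-0.16 to 0.075), Mcl1 (-0.023 to 0.27) and Bcl2l11 (-0.00080 to 0.17).

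Animals of the same number were not paired by the labels, and their residuals correlated between -0.18 and 0.37. With the animal number as a replicate block the counts of called members were 1 in the Atf6a-/- response, 1 in the wild-type response, 1 between genotypes after TM, 0 after vehicle and 0 in the interaction, and the block changed no call of a member. Of 63 results on other genes, 38 kept direction and side of the threshold under all alternatives and 0 changed sign.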
